A study of Mus musculus with 6 samples.

Results

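The 10 genes described here encode transcription factors, and 1 co-receptor, that mark pluripotent cells of the mouse embryo: *Zfp42* (Rex1), *Pou5f1* (Oct4), *Sox2*, *Nanog*, *Klf4*, *Klf2*, *Esrrb*, *Tfcp2l1*, *Tdgf1* (Cripto) and *Sall4*. They were picked by symbol among 55364 genes listed for mouse morulae, the compacted stage just before the blastocyst forms, and all 10 passed the filter on low values, as did 17353 genes in all. The question asked of them was whether the other 9 moved with *Zfp42* when *Yy1* was depleted. All embryos came from in vitro fertilisation of BDF1 oocytes with BDF1 sperm (BDF1 mice descend from C57BL/6N and DBA/2) and were grown in KSOM medium after an siRNA was injected into the zygote. The 3 control KD (knockdown) libraries came from embryos given a control siRNA and the 3 *Yy1* KD libraries from embryos given an siRNA against *Yy1*, and each library pooled 10 morulae of unknown sex. The design is therefore a transient knockdown and not a deletion, and every level is a mean over all cells of a pool. An siRNA acts on RNA and does not touch protein already stored in the egg. For the protein, the paper reports that immunofluorescence of morulae showed YY1 to be efficiently depleted.

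Inside cells of the future inner cell mass, OCT4, SOX2 and NANOG bind DNA together and sustain one another's genes, and a second tier of factors (ESRRB, KLF2, KLF4 and TFCP2L1) holds the naive state through LIF and related signals. REX1, the protein of *Zfp42*, is a widely used reporter of that naive state and is dispensable for pluripotency itself. *Zfp42* is also a retroposed relative of *Yy1*: REX1, YY1 and YY2 share zinc fingers of one kind. In the morula the lineages are only beginning to part, so these genes are active beside the first trophectoderm genes.

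The siRNA target was low in every *Yy1* KD library. *Yy1* (chr12:108792973-108820148, mm10) stood at 96.0, 100.2 and 89.8 TPM (a level per transcript length, scaled to the library's total) in control KD and at 8.73, 8.90 and 8.32 TPM in *Yy1* KD. The mean after knockdown was 9.07% of control (log2 fold change of TPM + 1, -3.32 ± 0.09 SE, adjusted p = 6.71e-05 by limma over all genes tested). *Yy2*, the other retroposed relative, lay between 6.86 and 7.53 TPM in control KD and between 7.67 and 9.22 TPM in *Yy1* KD (adjusted p = 0.466). All 2867 of its exonic bases are shared with *Mbtps2* on the same strand, so this row may not measure *Yy2* alone. Libraries held 11793561 to 24417441 read pairs, recovered from the values, and 16696 to 17687 genes at 1 TPM or more, so depth overlapped between the groups. Over all genes tested, 6.11% were called changed at an adjusted p under 0.05, which was 4.20% lower (728 genes) and 1.92% higher (333 genes) in *Yy1* KD. Quantile normalization moved the share of lower genes among those called from 68.6% to 58.5%. Leaving out any 1 library reduced the calls, to between 53 lower and 22 higher without control KD replicate 3 and 326 lower and 92 higher without *Yy1* KD replicate 1.

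*Zfp42* fell to 10.8% of its control level, and none of the other 9 factors was called changed. *Zfp42* (ENSMUSG00000051176.6, chr8:43295063-43306980, minus strand, mm10) was measured at 216, 210.4 and 227 TPM in control KD, a mean of 218 ± 8.57 (SD, n = 3). In *Yy1* KD it was measured at 23.5, 26.3 and 20.6 TPM, a mean of 23.5 ± 2.85. The groups did not overlap, and the lowest control library was far above the highest *Yy1* KD library. The log2 fold change was -3.17 ± 0.10 (SE, 95% interval -3.41 to -2.92, adjusted p = 0.000118 by limma). Only 8 of the 17353 genes had a lower fold change, *Yy1* among them. An exact permutation test of 3 libraries against 3 cannot give a p under 0.1, and *Zfp42* gave that value. Its fall was known when the 10 genes were put together, so these values describe it and are no independent support. It was called in all 18 processing alternatives, with fold changes between -3.25 and -3.08. In bulk RNA of whole embryos, fewer cells that express a gene and less RNA in each cell cannot be told apart.

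The gene has an annotated processed copy, *Zfp42-ps1* (chr15:93679160-93679649), which was looked up after the values of *Zfp42* were seen. It was listed at 17.0, 18.7 and 12.4 TPM in control KD and at 0.395, 0.742 and 2.06 TPM in *Yy1* KD (log2 fold change -3.11 ± 0.32, adjusted p = 0.00949 by limma). The copy thus fell together with the gene. Whether the copy is transcribed or takes reads of *Zfp42* was not tested.

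The sequence before the start of *Zfp42* is shown because it is the only promoter of the group with a complete octamer, the DNA word read by OCT4 and other POU factors. It is given 5′ to 3′ on the gene's strand from the RefSeq promoter table (GRCm38.p6, the build called mm10), covering the 250 bases before the start at chr8:43307010-43307259. Capitals mark the octamer on its reverse strand, at chr8:43307188-43307195.
*Zfp42*: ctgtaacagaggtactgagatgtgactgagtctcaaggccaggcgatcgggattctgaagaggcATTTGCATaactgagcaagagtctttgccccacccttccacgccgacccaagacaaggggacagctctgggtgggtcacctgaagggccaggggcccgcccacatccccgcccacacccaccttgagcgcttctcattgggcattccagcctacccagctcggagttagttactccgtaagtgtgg
Shorter stretches of 60 bases show the same core, the first 7 letters of the octamer, in the promoters of *Sox2* (chr3:34649870-34649929, plus strand) and *Nanog* (chr6:122707388-122707447, plus strand), with the core in capitals. The 7-letter core was chosen after the promoters were seen.
*Sox2*: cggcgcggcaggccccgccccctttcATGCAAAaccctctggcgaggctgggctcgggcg
*Nanog*: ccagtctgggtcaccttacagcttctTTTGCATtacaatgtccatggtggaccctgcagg
The stretches show that the core runs forward in *Sox2* and on the reverse strand in *Nanog*, as in *Zfp42*.

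The table held 12 promoter windows for 9 of the 10 genes, each spanning 250 bases before and 50 after a start, and none for *Sall4*. The octamer ATGCAAAT was found on either strand in 1.74% of the 32817 windows of all genes and, among these 12, in that of *Zfp42* alone. Its first 7 letters, ATGCAAA, which every octamer contains, occurred in 4.63% of all windows and in 5.25% of the 26994 genes with a window. Among the genes here the core was in *Zfp42*, *Sox2* and *Nanog*. The windows of *Nanog* overlap and hold the same site. The YY1 motif GCCATNTT occurred in 6.04% of all windows and the estrogen-related receptor element TCAAGGTCA in 0.424%, and neither was in any of the 12. These matches describe letters in a window and say nothing of binding. Of the 3 genes with the core, *Zfp42* was called lower in *Yy1* KD and *Sox2* and *Nanog* were not.

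**Figure D1:**
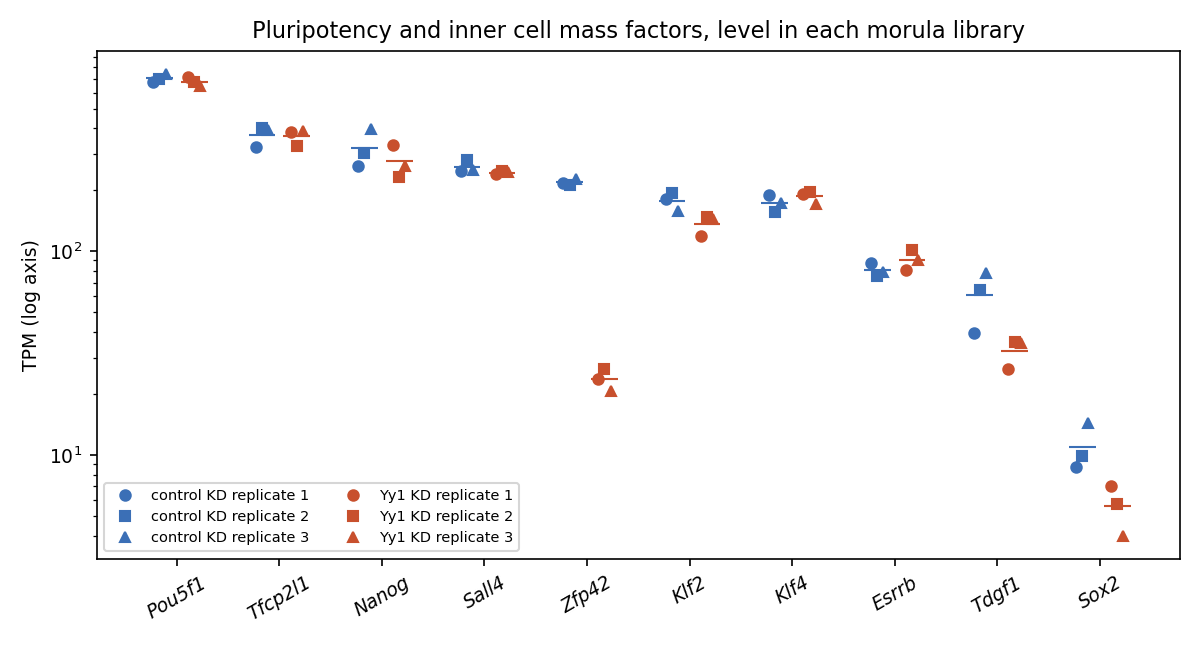
Level of each factor in TPM (log axis) in the 6 libraries, with genes ordered by their mean in control KD. Blue points are control KD, orange points *Yy1* KD, marker shapes are replicate numbers and bars are group means. *Zfp42* drops from above 210 to below 27 TPM in every *Yy1* KD library, while 5 of the other factors overlap between the groups.

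Of the core triad, *Pou5f1* overlapped between the groups with close means, and *Sox2* and *Nanog* had lower means that were not called. *Pou5f1* (chr17:35506018-35510772) was the most abundant of the 10, at 678, 698 and 742 TPM in control KD and 712, 673 and 649 TPM in *Yy1* KD. Its groups overlapped, with 706 ± 32.4 TPM against 678 ± 31.6, and the interval of its log2 fold change ran from -0.23 to 0.11 (adjusted p = 0.671). A predicted gene on the opposite strand, *Gm19553*, shares 317 exonic bases with *Pou5f1*, and reads were counted without strand.

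*Nanog* (chr6:122707489-122714633), a homeodomain factor whose level varies from cell to cell in pluripotent cells, was at 262, 304 and 399.6 TPM in control KD and at 334, 232 and 261 TPM in *Yy1* KD. The spread within each group was wide and the groups overlapped. Its log2 fold change was -0.22 ± 0.19 (interval -0.67 to 0.23, adjusted p = 0.537).

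*Sox2* (chr3:34650405-34652461), the partner of OCT4 on composite DNA sites, was the least abundant factor. It was measured at 8.73, 9.93 and 14.3 TPM in control KD and at 7.03, 5.75 and 4.02 TPM in *Yy1* KD, so that all 3 depleted libraries lay under all 3 controls. The mean after knockdown was 51.0% of control, with a log2 fold change of -0.86 ± 0.25 (interval -1.45 to -0.27). Its unadjusted p was 0.0106 and its adjusted p 0.0942 by limma, past the first threshold and not the second. The adjusted p ranged from 0.0524 to 0.228 over the 18 alternatives. Its level rested on 41 to 219 read pairs per library, fewer than for any other factor.

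Among the naive-state factors, *Klf4*, *Esrrb* and *Tfcp2l1* overlapped between the groups and *Klf2* did not, but no gene of the 4 was called. *Klf4* (chr4:55527143-55532466), a zinc finger factor of the reprogramming set, was at 188, 156 and 173 TPM in control KD and at 192, 196 and 171 TPM in *Yy1* KD. *Esrrb* (chr12:86361117-86521628), an orphan nuclear receptor, was at 87.0, 75.3 and 79.0 TPM in control KD and at 80.9, 102 and 90.4 TPM in *Yy1* KD. These were the only 2 factors with a higher mean after knockdown, and their log2 fold changes of 0.12 and 0.17 had intervals of -0.11 to 0.34 and -0.08 to 0.42.

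*Tfcp2l1* (chr1:118627945-118685168), a Grainyhead-family factor downstream of LIF, was at 324, 401 and 391 TPM in control KD and at 383, 329.6 and 389 TPM in *Yy1* KD. Its log2 fold change of -0.02 (interval -0.28 to 0.24) was the smallest of the 10, and its sign turned in 4 of the alternatives, with values up to 0.058. It shares 130 exonic bases with the small RNA gene *Gm23497*.

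*Klf2* (chr8:72319033-72321656), a Krüppel-like factor that can replace *Klf4* in sustaining the naive state, was at 181, 193 and 157 TPM in control KD and at 119, 147 and 143 TPM in *Yy1* KD. Every depleted library lay under every control library. The mean after knockdown was 77.1% of control (log2 fold change -0.37 ± 0.12, interval -0.65 to -0.10), with an unadjusted p of 0.0153 and an adjusted p of 0.112 by limma.

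*Sall4* (chr2:168748332-168767943), a zinc finger factor that binds with OCT4 and acts on the *Pou5f1* gene, was at 248, 281 and 249.7 TPM in control KD and at 239.5, 247 and 243 TPM in *Yy1* KD. The groups were separate by a narrow margin, the highest depleted library lying just under the lowest control. Its log2 fold change was -0.09 ± 0.07 (interval -0.27 to 0.08, adjusted p = 0.505). *Gm14261*, on the other strand, shares 526 exonic bases with it.

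*Tdgf1* (chr9:110939603-110946158) encodes Cripto, the EGF-CFC co-receptor through which NODAL signals, and it is the only one of the 10 that does not encode a nuclear factor. It was at 39.5, 64.5 and 78.4 TPM in control KD and at 26.3, 35.8 and 35.5 TPM in *Yy1* KD. The groups did not overlap, but the controls alone spanned 1.98-fold. The mean after knockdown was 53.5% of control, and the log2 fold change was -0.84 ± 0.26 (interval -1.45 to -0.23, unadjusted p = 0.0140, adjusted p = 0.108 by limma). One alternative did call it, limma-voom on the recovered read pairs, at -0.92 and an adjusted p of 0.0237. Over all alternatives the adjusted p ranged from 0.0237 to 0.244. Its processed copy *Tdgf1-ps1* was listed at no more than 1.88 TPM in any library.

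Counted without *Zfp42*, 0 of the other 9 factors were called in either direction by limma, beside 4.20% of all genes tested called lower and 1.92% called higher. Limma-voom called 1 of them lower, *Tdgf1*, where it called 1280 of 16931 genes lower and 809 higher. Means were lower in *Yy1* KD for 7 of the 9 and higher for 2, where 52.8% of all genes tested were lower. For 4 of the 9 (*Sox2*, *Klf2*, *Tdgf1* and *Sall4*) all *Yy1* KD libraries lay under all control libraries, and for 0 they lay above. The same was true of 17.2% of all genes in the lower and 12.9% in the higher direction. An unadjusted p under 0.05 was reached by 3 of the 9, all with lower means, and by 23.8% of all genes. The median log2 fold change was -0.09 over the 9, against -0.02 over all genes.

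The intervals bound what the 9 could have done. For 7 of them the interval of the log2 fold change lay within -1 to 1, the exceptions being *Sox2* and *Tdgf1*. The lowest bound of any of the 9 was -1.45, whereas the highest bound of *Zfp42* was -2.92, so that no interval of another factor reached that of *Zfp42*. The fall of *Zfp42* was known when the group was formed, so this separation is a description and no test.

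**Figure D2:**
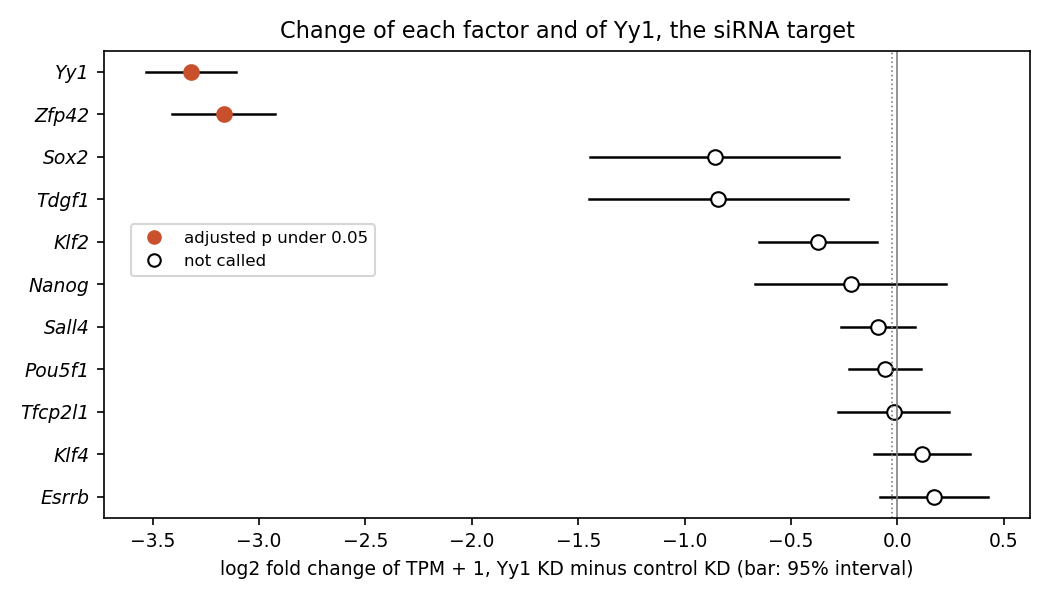
Log2 fold change of TPM + 1 (*Yy1* KD minus control KD) for each factor and for *Yy1*, with bars for the 95% interval and the dotted line at the median of all genes. Filled points have an adjusted p under 0.05. *Zfp42* at -3.17 stands beside *Yy1* at -3.32, and the open points of the other 9 lie between -0.86 and 0.17.

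*Zfp42* was then set against each other factor inside the same library. The ratio of *Zfp42* TPM to *Pou5f1* TPM was 0.301 to 0.318 in control KD and 0.0317 to 0.0391 in *Yy1* KD. Against *Klf4* the ratio went from between 1.15 and 1.35 to between 0.120 and 0.134. *Zfp42* was thus above *Klf4* in every control library and far under it in every depleted one. The log2 ratio of TPM + 1 was lower in *Yy1* KD for each of the 9 pairs, without overlap between the groups. The smallest changes were -2.31 against *Sox2* and -2.32 against *Tdgf1*, and the largest was -3.34 against *Esrrb*. All 9 ratios share *Zfp42*, whose fall was known, so the separation is a description and no test is read from it.

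**Figure D3:**
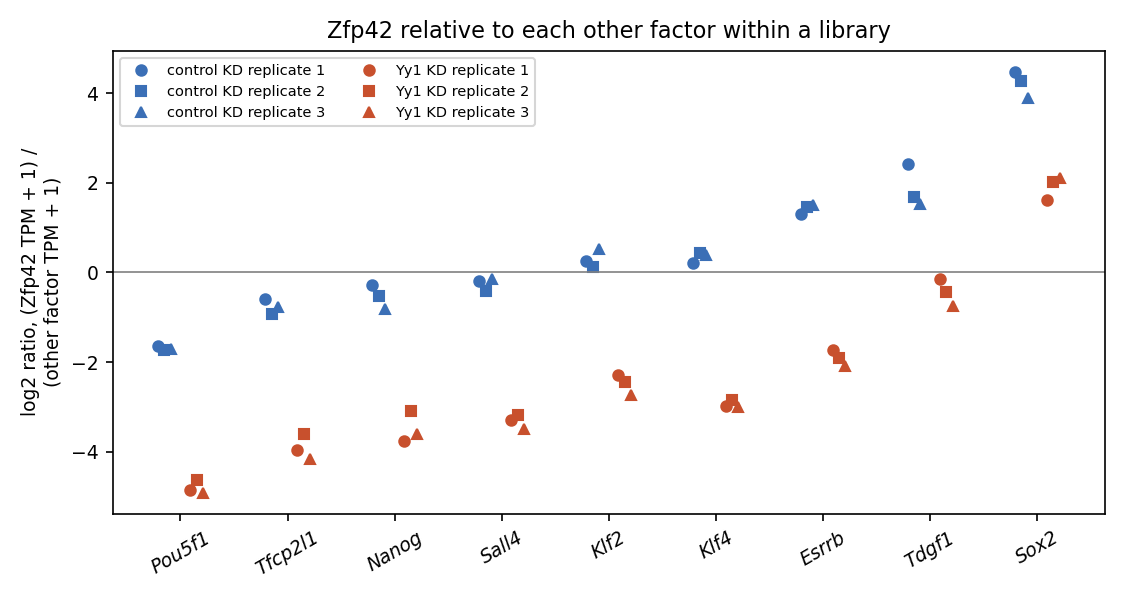
Log2 ratio of *Zfp42* to each other factor (TPM + 1) within a library, in control KD (blue) and *Yy1* KD (orange), with marker shapes for replicate numbers. In all 9 columns the 3 *Yy1* KD libraries lie under the 3 control libraries, with changes from -2.31 to -3.34.

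Apart from *Zfp42*, only *Klf2* and *Klf4* exchanged places in the ranking of mean levels. In control KD the order of mean TPM was *Pou5f1*, *Tfcp2l1*, *Nanog*, *Sall4*, *Zfp42*, *Klf2*, *Klf4*, *Esrrb*, *Tdgf1* and *Sox2*. The library ranges of neighbours in that order overlapped for *Tfcp2l1* and *Nanog*, *Nanog* and *Sall4*, *Klf2* and *Klf4*, and *Esrrb* and *Tdgf1*. In *Yy1* KD *Zfp42* moved from rank 5 to rank 9 of the 10, and its range there overlapped that of *Tdgf1* just above it. The 9 factors without *Zfp42* summed to 2017, 2183 and 2284 TPM in control KD and to 2092, 1967 and 1987 TPM in *Yy1* KD, which overlapped (two-sided exact permutation p = 0.2). Control KD replicate 3 was the highest of the 6 libraries for 5 factors, *Zfp42*, *Pou5f1*, *Sox2*, *Nanog* and *Tdgf1*. Without that library the log2 fold changes of *Sox2* and *Tdgf1* were -0.67 (adjusted p = 0.228) and -0.63 (adjusted p = 0.244), the values nearest to 0 among their alternatives.

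Across the 6 libraries, which include the knockdown itself, the factors whose log2 levels ran closest to *Zfp42* were *Sox2* (Pearson r = 0.861), *Klf2* (0.812) and *Tdgf1* (0.798). *Sall4* had 0.602, *Pou5f1* 0.504, *Nanog* 0.422 and *Tfcp2l1* 0.0408, and *Klf4* and *Esrrb* ran the other way at -0.475 and -0.588. These are descriptions of 3 against 3 libraries and carry no test. Outside the group, likeness was ranked among tested genes with a mean of at least 10 TPM, leaving out clone, predicted and pseudogene symbols. The 5 whose pattern was most like *Zfp42* were *Polr1b*, *Ovca2*, *Yy1*, *Med13* and *Baz1a*, all with r between 0.9976 and 0.9986. All 5 were lower in *Yy1* KD, which their choice by likeness to *Zfp42* fixed, so their calls are no support. *Baz1a*, a chromatin remodelling subunit, went from 313 to 58.8 TPM and *Med13*, of the Mediator kinase module, from 42.4 to 18.2 TPM. *Polr1b* and *Ovca2* had smaller log2 fold changes of -0.39 and -0.88.

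Genes beside *Zfp42* on chromosome 8 were not called. *Triml2*, 101 kb away, had 15.0 TPM in control KD and 15.3 in *Yy1* KD (adjusted p = 0.885), and *Fat1*, 1628 kb away on the other side, had 40.6 and 36.8 TPM (adjusted p = 0.854). These are the nearest protein-coding genes that passed the filter, and the sign turned for *Triml2* without control KD replicate 2 (-0.20) and for *Fat1* without control KD replicate 1 (0.10) or *Yy1* KD replicate 2 (0.0054).

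**Figure D4:**
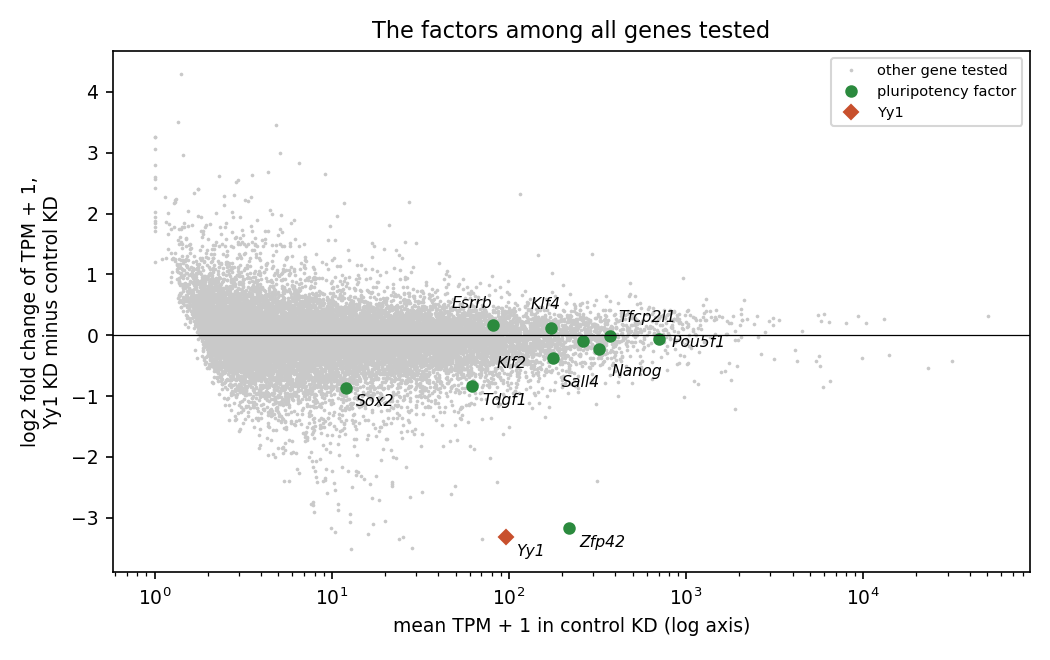
Log2 fold change of each of the 17353 genes tested (grey) against its mean TPM + 1 in control KD (log axis), with the 10 factors in green and *Yy1* as an orange diamond. *Zfp42* and *Yy1* lie below -3 at the bottom, and the other factors lie within the cloud of genes of like level.

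Genes around the group were counted from lists of general knowledge. For comparison with the list counts, limma-voom called 809 genes higher and 1280 lower of 16931 over all genes. On the 10675 genes with a mean of at least 5 TPM, limma called 378 higher and 841 lower. Of all genes tested, 23.8% had an unadjusted p under 0.05. Of 29 other naive pluripotency regulators, 26 were tested, 1 was called lower and 0 higher, with a median log2 fold change of 0.04. An unadjusted p under 0.05 was reached by 8, limma-voom called 2 higher and 2 lower, and on genes with a mean of at least 5 TPM limma called 1 higher and 2 lower. The gene called lower on all genes tested was *Nacc1*, a BTB-domain partner of NANOG. It was at 84.8, 97.2 and 82.5 TPM in control KD and 54.8, 48.7 and 58.3 TPM in *Yy1* KD (log2 fold change -0.70 ± 0.10, adjusted p = 0.0185 by limma). Its call held in 1 of the 6 fits that leave out a library, the one without *Yy1* KD replicate 3, and otherwise rose to an adjusted p of at most 0.0621. The replicate block gave 0.0681 and the fit without a variance trend 0.0509. Read pairs could not be recovered for *Nacc1*, because its ID had no match in the annotation that gave exon lengths. For the same reason it was absent from the limma-voom fit and from the fits on genes of at least 200 nt and on genes without exonic overlap.

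Of 11 genes of LIF and STAT3 signalling, which feeds *Klf4* and *Tfcp2l1*, 9 were tested and 1 was called lower, with a median of -0.15. The receptor genes *Lifr* (0.0179 to 0.135 TPM) and *Il6st* (0.547 to 1.38 TPM), named after their values were seen, did not pass the filter. An unadjusted p under 0.05 was reached by 4, limma-voom called 1 higher and 3 lower, and limma on genes of at least 200 nt called 3 lower. Over all genes, limma-voom called 809 higher and 1280 lower of 16931. The fit on genes of at least 200 nt called 400 higher and 1035 lower of 16311. The gene called lower by limma on all genes tested was *Socs3*, the feedback inhibitor that STAT3 induces. It was at 70.4, 92.1 and 76.8 TPM in control KD and 47.9, 58.9 and 48.6 TPM in *Yy1* KD (log2 fold change -0.61 ± 0.13, adjusted p = 0.0454). It was called in 0 of the 6 fits that leave out a library, with adjusted p from 0.0741 to 0.124. Those fits also called fewer genes over all genes tested. Of the 12 other alternatives, 8 called *Socs3*, limma-voom among them (adjusted p = 0.0115). It was not called without a filter, under median-ratio scaling, under quantile normalization or without a variance trend. *Socs3* and *Nacc1* thus sat near the threshold.

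For the pathway that *Tdgf1* belongs to, 11 of 16 NODAL and EGF-CFC genes were tested, and limma called 0 changed, with 4 at an unadjusted p under 0.05 and 0 called by limma-voom. The median log2 fold change was -0.23. The most abundant members were the signal transducers *Smad4* (log2 fold change 0.01, adjusted p = 0.946) and *Smad2* (0.13, adjusted p = 0.487). The ligand gene *Nodal* was under 1 TPM in all 6 libraries and was not tested.

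Of 10 genes of the formative and primed epiblast, the state that follows the naive one, 6 were tested and limma called 0. An unadjusted p under 0.05 was reached by 4, limma-voom called 1 higher and 2 lower, and the median was -0.28. The most abundant were the RNA-binding protein gene *Lin28a* (log2 fold change 0.30, adjusted p = 0.0690) and the DNA methyltransferase gene *Dnmt3b* (-0.26, adjusted p = 0.342).

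Markers of other cells that the pools could hold were read in the same fit. Of 11 trophectoderm genes 9 were tested and 1 was called lower, *Tfap2c*, at 192, 179 and 179.7 TPM in control KD and 135, 116 and 125 TPM in *Yy1* KD (log2 fold change -0.54 ± 0.08, adjusted p = 0.0174 by limma). The list had a median of -0.13 and 2 genes at an unadjusted p under 0.05, and limma-voom called 1 higher and 1 lower. The call of *Tfap2c* held in 1 of the 6 fits that leave out a library, that without *Yy1* KD replicate 1, and the adjusted p reached 0.0668 in the others. Without a variance trend it was 0.0637. The summed trophectoderm level was 1150 to 1203 TPM in control KD and 876 to 1092 TPM in *Yy1* KD, so it was lower in each depleted library, and its part in the results above was not tested. The sum is weighted to the most abundant genes. Fold changes were lower for 6 of the 9 and higher for 3, where 52.8% of all genes tested were lower. The groups did not overlap for 1 lower gene, *Tfap2c*, and 1 higher gene, *Id2*, beside 17.2% and 12.9% of all genes. *Id2* was named after its values were seen. *Cdx2*, the defining trophectoderm factor, named here after its values were seen, was at 56.1 to 65.0 TPM in control KD and 57.0 to 69.3 TPM in *Yy1* KD.

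Of 12 primitive endoderm genes 8 were tested and limma called 0 (2 had an unadjusted p under 0.05, and limma-voom called 2 lower), with a median of -0.06. Their sum was 260 to 288 TPM in control KD and 248 to 262 TPM in *Yy1* KD. The most abundant were *Gata6* (log2 fold change 0.12, adjusted p = 0.416) and the endocytic adaptor gene *Dab2* (-0.19, adjusted p = 0.429). All 10 oocyte genes were tested and limma called 0 (1 had an unadjusted p under 0.05, and limma-voom called 0), with a median of 0.01 and sums of 62.4 to 83.1 and 62.7 to 83.0 TPM. The most abundant of these were *Gdf9* (log2 fold change 0.17) and *Zp2* (0.21). Cumulus and granulosa markers, from the cells that surround the egg, summed to at most 3.73 TPM in any library, 1 of 11 passed the filter, and 5 (*Has2*, *Ptx3*, *Tnfaip6*, *Cyp19a1* and *Fshr*) were at 0 in all 6.

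Of 33 paralogs of the 10 factors, 23 were tested, 2 were called lower and 0 higher, with a median of 0.01. An unadjusted p under 0.05 was reached by 5, and limma-voom called 1 higher and 3 lower. Of the 2 called lower by limma on all genes tested, 1 was *Yy1* itself. The other was *Klf13*, at 28.8, 29.7 and 26.4 TPM in control KD and 18.2, 19.6 and 20.1 TPM in *Yy1* KD (log2 fold change -0.53 ± 0.10, adjusted p = 0.0318 by limma). It was called in 0 of the 6 fits that leave out a library (adjusted p 0.0709 to 0.0986) and not under the replicate block. Nor was it called without a filter (0.0580), under quantile normalization (0.0623) or without a variance trend (0.0650).

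**Figure D5:**
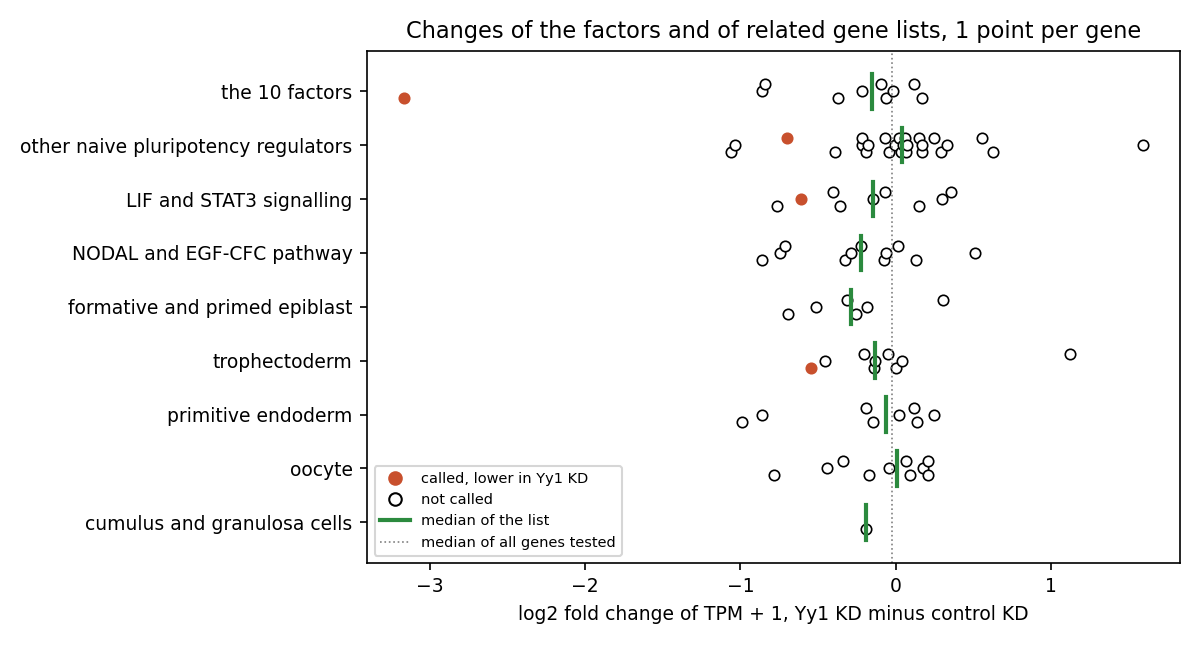
Log2 fold change of TPM + 1 (*Yy1* KD minus control KD) of each tested gene in the 10 factors and in 8 related lists, 1 point per gene, with green bars at list medians and the dotted line at the median of all genes. The list of paralogs, which holds *Yy1*, is not drawn. Filled points have an adjusted p under 0.05. The lowest list median is -0.28, for the formative and primed epiblast, and *Zfp42* at -3.17 is the lowest point drawn.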

How the data were processed

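Per the submitters' processing notes and the study's methods, reads were trimmed with Trim Galore 0.6.7, aligned to mm10 with HISAT2 2.2.1 and counted per GENCODE gene with featureCounts 2.0.1, splitting pairs over overlapping genes and ignoring strand. The authors deposited 1 table of TPM values, which sum to 1000000 per library. TPM are no counts, so the count test of the methods was replaced by limma 3.58.1 (R 4.3.3, variance trend) on log2(TPM + 1) for genes with at least 1 TPM in at least 3 of 6 libraries, with Benjamini-Hochberg adjustment over 17353 genes. Fold changes on this scale understate changes of low genes. Read pairs were recovered from low values (80.5 to 81.7% of values under 20 pairs whole within 0.02). Coordinates come from GENCODE vM21, matched for 98.1% of IDs. Nothing states that libraries came from separate litters, so p-values measure the spread between these pools.

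The members and lists were chosen with earlier results of these data known. Named were all members, *Yy1* and *Yy2*, per list up to 4 called genes or the 2 most abundant, the 5 genes most like *Zfp42* and its tested neighbours. Alternatives were another pseudocount, filters, scalings, variance models, a replicate block, leave-one-out fits and limma-voom. The fit was tested on simulated data.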

Additional observations from a re-analysis of the deposited data

How the results depend on the processing

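Of 177 fold changes of the 10 factors recomputed over 18 alternatives, 172 kept their direction and their side of the threshold. The exceptions were *Tfcp2l1*, whose sign turned under median-ratio scaling (0.0081) and in 3 leave-one-out fits (range -0.11 to 0.058), and *Tdgf1*, called under limma-voom, which made 2 factors called lower. *Triml2* ranged from -0.20 to 0.24 and *Fat1* from -0.38 to 0.10. Counts over all genes moved most. Against 333 genes higher and 728 lower, the fit without a filter gave 77 and 270, without a variance trend 132 and 382, with limma-voom 809 and 1280, and on genes without exonic overlap (added after seeing the data, on 10611 genes) 212 and 399. Leave-one-out fits gave 22 to 92 higher and 53 to 326 lower. The cause was not tested beyond the fewer genes or libraries that some of these use. The labels link samples of the 2 groups only by a replicate number. Deviations from the group means correlated at -0.0039, 0.032 and 0.075 for same-numbered libraries. Control KD replicates 2 and 3 correlated best with the *Yy1* KD library of their own number. Control KD replicate 1 correlated best with *Yy1* KD replicate 2 (0.041). Values this small, from 3 libraries a group, cannot show whether same-numbered libraries shared a batch. The replicate block gave 69 and 218. Depth limits *Sox2* most, with 41 read pairs in its shallowest library. With 3 libraries a group, the exact test cannot go under 0.1.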

Other observations

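Several genes of the related lists did not overlap between the groups and were not called. They are named here after their values were seen. Of all genes tested, 17.2% did not overlap with lower and 12.9% with higher *Yy1* KD values, so that single genes of this kind are common. *Fgf4*, the growth factor gene that OCT4 and SOX2 activate together, was at 14.2, 12.2 and 21.2 TPM in the controls and at 5.25, 6.89 and 9.03 TPM after *Yy1* knockdown (log2 fold change -1.06 ± 0.25, adjusted p = 0.0607 by limma). *Prdm14*, a repressor of differentiation genes in naive cells, was at 6.33, 4.08 and 3.40 TPM in the controls and at 0.655, 2.48 and 2.28 TPM after knockdown (-1.04 ± 0.36, adjusted p = 0.140). *Otx2*, a factor of the formative epiblast, had a control mean of 14.3 ± 1.81 TPM and a *Yy1* KD mean of 8.46 ± 1.18 TPM (adjusted p = 0.0518). The ligand gene *Lif* averaged 7.61 ± 1.28 TPM in the controls and 4.08 ± 0.811 after knockdown (adjusted p = 0.0719).

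In the other direction, *Dppa2*, an abundant regulator of early embryonic genes, was at 794, 735 and 686 TPM in the controls and at 944, 942 and 895 TPM after knockdown (log2 fold change 0.33 ± 0.08, adjusted p = 0.0577 by limma). *Gbx2*, a target of STAT3, averaged 5.05 ± 0.350 TPM in the controls and 7.91 ± 0.933 after knockdown (adjusted p = 0.0874). *Spp1*, which encodes osteopontin, had the highest fold change of the naive list, from 1.84 ± 1.39 to 6.85 ± 2.10 TPM (log2 fold change 1.59 ± 0.47, adjusted p = 0.0993), at a level of few read pairs. Higher and lower members of the naive list were both present, and its median was 0.04.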
